A study of Mus musculus with 16 samples.

Results

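The genes described are the mitochondrial carriers that have a numbered *Slc25a* symbol. The table of 54347 genes held 47 of them, all found by symbol, and 38 passed the filter on low counts and were tested. The family also holds the uncoupling proteins and the carrier homologs *Mtch1* and *Mtch2*, whose symbols differ, and these were kept apart as a comparison list.

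RNA came from wt1-SAM cells, an immortalized mouse brown preadipocyte line that stably carries the SAM form of CRISPR activation, in which a dead Cas9 and guide-bound activators raise transcription at a chosen site. All cells, controls included, carried this system. They were induced to differentiate with rosiglitazone, insulin, T3, dexamethasone, indomethacine and IBMX. They were then kept in medium with rosiglitazone and insulin, and afterwards in medium with rosiglitazone. On day 4 they were reverse transfected with 250 ng of plasmid, either the empty vector or the pair of sgRNA plasmids labelled pSgRNA-MS2-2+7 that target the long noncoding RNA gene *Gm15551*, and on day 7 they were harvested, with or without 1 µM of the β-adrenergic agonist isoproterenol for the last 24 h. This gave 4 groups (empty vector control, empty vector stimulated, sgRNA control, sgRNA stimulated) of 4 libraries each, numbered as replicates 3, 4, 5 and 6. Nothing in the labels says that the replicates were separate cultures, so the p-values measure the spread between these samples only.

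SLC25 proteins sit mostly in the inner mitochondrial membrane, which lets few solutes through by itself, and exchange nucleotides, phosphate, carboxylates, amino acids, cofactors and metal ions between the cytosol and the matrix. They share a common fold, differ in substrate, and are made in the cytosol and inserted by the TIM22 machinery. In brown fat they link the matrix, where fatty acids are oxidized and heat is made, to lipid synthesis and amino acid use outside it, and the uncoupling protein UCP1, the defining protein of thermogenesis, belongs to the same family.

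Total counts per library ranged from 9053521 to 16546187, of which a single ribosomal RNA gene took 11.7% to 51.8%. The targeted gene *Gm15551* was low throughout, with 0.390 to 1.35 CPM (counts scaled to a common library size) in empty vector control, 0 to 0.421 in empty vector stimulated, 1.42 to 3.92 in sgRNA control and 1.04 to 2.04 in sgRNA stimulated libraries, so every sgRNA library lay above the empty vector libraries of the same treatment. Of 12 brown adipocyte markers 10 averaged over 1 CPM, from *Fabp4* (8215 to 19510 CPM) and *Lpl* over *Adipoq*, *Plin1*, *Elovl3* (158 to 442.5 CPM), *Pparg* and *Ppargc1a* (30.5 to 88.7 CPM) to *Ucp1* (0 to 15.5 CPM), *Cidea* and *Prdm16*, while *Cox7a1* and *Cox8b* averaged 0.792 and 0.799 CPM. Of 6 preadipocyte and fibroblast markers, *Ly6a*, *Col1a1* and *Pdgfra* averaged 30.2, 12.6 and 2.71 CPM, and the others had at most 8 counts in a library. Of the macrophage, endothelial and skeletal muscle markers, *Cd68* of 5 macrophage, *Pecam1* of 3 endothelial and *Acta1* of 5 skeletal muscle genes averaged over 1 CPM (14.06, 2.26 and 2.19), and the others, which include *Ptprc*, *Adgre1*, *Cdh5*, *Kdr*, *Myod1* and *Myf5*, had at most 5 counts in a library.

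A β-adrenergic agonist raises cAMP, and the cAMP response element is the DNA motif bound by CREB, so carrier promoters were searched for its full palindrome TGACGTCA and its half-site TGACG on both strands (CGTCA when read from the other strand), a full palindrome also containing half-sites. The search covered only the 250 bases before each start, from a RefSeq table (GRCm38.p6) that held 36 of the 47 carriers in 46 windows. The full motif stood in 2 of these windows (4.35%, against 1.55% of 32851 windows of all genes) and a half-site in 11 (23.9%, against 17.8%). Neither carrier with a full motif, *Slc25a36* or *Slc25a25*, was called under isoproterenol, and of the 6 called carriers with a window, *Slc25a13* and *Slc25a33* held a half-site, as did 8 of the 23 tested carriers with a window that were not called. A match is a description of the letters and not a binding site. The stretches shown are those of a carrier that rose, 1 that fell, and both with the full motif. They are cut where an annotated exon begins, and capitals mark the motif, as far as there is one: *Slc25a33* at chr4:149774278-149774517, *Slc25a1* at chr16:17928220-17928469, *Slc25a36* at chr9:97111158-97111291 and 1 of 3 starts of *Slc25a25* at chr2:32424067-32424316, all on the minus strand.
Slc25a33: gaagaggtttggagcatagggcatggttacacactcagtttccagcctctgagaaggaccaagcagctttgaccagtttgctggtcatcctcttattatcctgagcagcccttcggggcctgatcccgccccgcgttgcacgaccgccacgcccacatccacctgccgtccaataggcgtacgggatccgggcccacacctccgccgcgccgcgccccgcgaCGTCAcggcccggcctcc
Slc25a1: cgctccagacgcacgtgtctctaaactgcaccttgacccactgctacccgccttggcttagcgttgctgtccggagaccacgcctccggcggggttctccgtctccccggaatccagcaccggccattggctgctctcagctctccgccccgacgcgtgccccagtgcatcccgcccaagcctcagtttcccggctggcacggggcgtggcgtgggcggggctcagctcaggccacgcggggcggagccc
Slc25a36: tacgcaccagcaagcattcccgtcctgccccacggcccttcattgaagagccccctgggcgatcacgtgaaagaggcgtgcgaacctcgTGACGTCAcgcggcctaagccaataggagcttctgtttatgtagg
Slc25a25: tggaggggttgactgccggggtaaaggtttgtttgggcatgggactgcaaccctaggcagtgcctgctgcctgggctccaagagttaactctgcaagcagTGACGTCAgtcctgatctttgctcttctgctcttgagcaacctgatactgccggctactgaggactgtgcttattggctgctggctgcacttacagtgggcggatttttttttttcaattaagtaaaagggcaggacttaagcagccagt

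The carriers covered a range of levels from the most abundant transcripts to none. Divided by exon length, *Slc25a5* and *Slc25a4*, which encode the ADP/ATP exchangers ANT2 and ANT1, stood highest, with means over the 16 libraries of 522 and 179 CPM per kilobase. *Slc25a3*, the phosphate carrier, followed at 74.0, with *Slc25a39*, a glutathione carrier, at 72.5 and *Slc25a1*, the citrate carrier, at 65.4 CPM per kilobase. The ranges over libraries of these 3 overlapped (63.1 to 92.0, 56.1 to 92.2 and 39.5 to 98.9), so their order was not separated by the spread. On this scale the lowest library of *Slc25a4*, at 117, was above all of them. That gap to *Slc25a3* rests on the merged exon lengths, 2353 bases for *Slc25a4* and 5550 for *Slc25a3*. Before division their means were 421 and 411 CPM. Merged lengths count every annotated exon, and the transcripts present were not separated. Next came the oxoglutarate carrier *Slc25a11* (49.5), the dicarboxylate carrier *Slc25a10* (48.3), the NAD carrier *Slc25a51* (32.6), the pyrimidine nucleotide carrier *Slc25a33* (26.3) and the peroxisomal carrier *Slc25a17* (21.8). Each of these neighbours overlapped the next in its range over libraries.

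**Figure D1:**
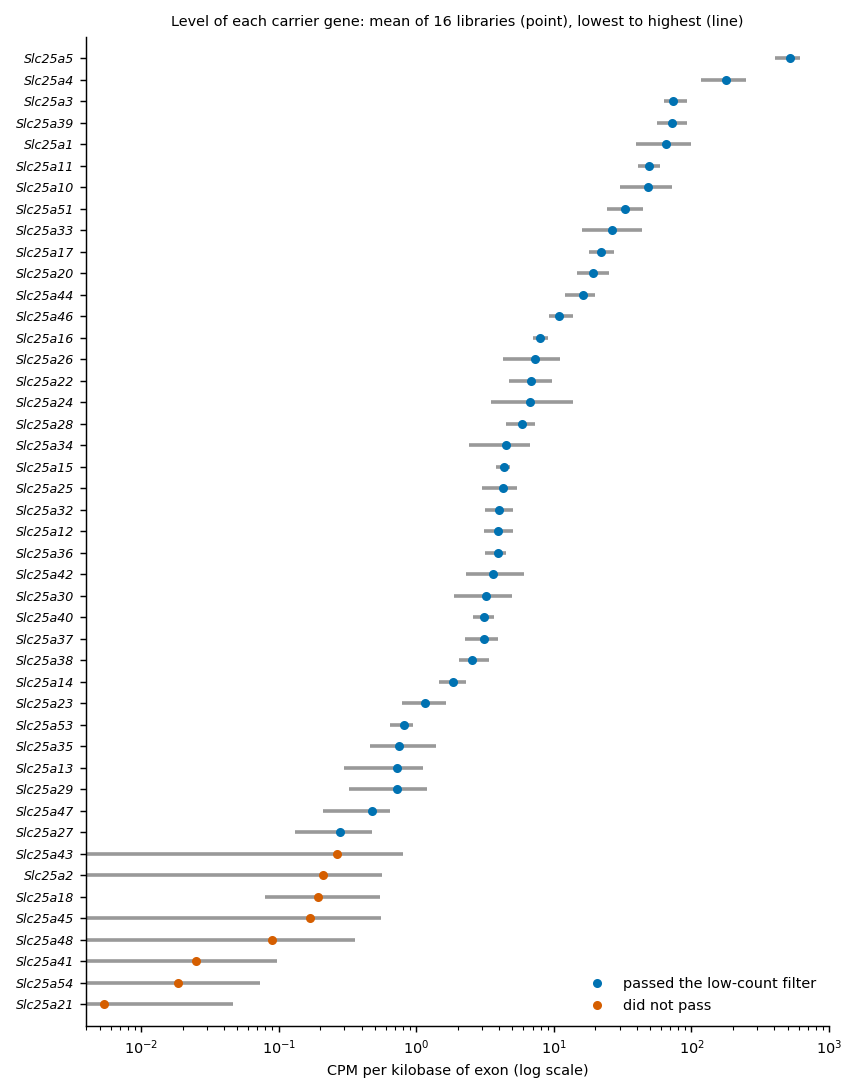
Level of each carrier gene in CPM per kilobase of exon on a log axis: points are means of the 16 libraries and lines run from the lowest to the highest library, reaching the left edge where a library was at 0. On this scale, which depends on the exon lengths used, *Slc25a5* at 522 and *Slc25a4* at 179 are highest. The 37 tested genes drawn are blue and 8 that did not pass the filter are orange. *Slc25a31* is left out because it was at 0 throughout.

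Of the summed mean CPM of the family, *Slc25a5* took 26.2%, *Slc25a4* 12.8% and *Slc25a3* 12.5%. *Slc25a5* has many processed pseudogenes, and 49.4% of the 31-base words of its exons recur in transcripts of other genes. Salmon nevertheless placed little there, since the 13 pseudogenes concerned summed to 0.0760 to 0.649 CPM per library, against 859 CPM for *Slc25a5* on average. Next in shared words were *Slc25a35*, with 27.5%, mostly shared with *Rangrf* on the opposite strand, and *Slc25a33*, with 13.5%, shared with the antisense gene *Gm13068*. *Gm13068* averaged 0.366 CPM against 49.7 for *Slc25a33*, and *Rangrf* 10.7 against 2.75 for *Slc25a35*, so the values of *Slc25a35* are uncertain. Since the use of strand is not known, reads in exons shared with a gene on the other strand cannot be assigned either for *Slc25a26* (144 bases shared with *Lrig1*, at 43.5 CPM against 34.9 for *Slc25a26*), *Slc25a10* (228 bases, *Gm11788*, at 0.339 CPM) and *Slc25a37* (473 bases, *Gm31748* and *Gm27223*), nor for *Slc25a11*, *Slc25a23*, *Slc25a25* and *Slc25a46*, which were not called. Smaller shares of words recurred for *Slc25a20* (9.02%), *Slc25a51* (5.22%) and *Slc25a42* (3.50%), but the pseudogenes with at least 1 shared word were not low in sum. They summed on average to 142 CPM against 93.1 for *Slc25a20*, 147 against 180 for *Slc25a51* and 110 against 21.8 for *Slc25a42*. These pseudogenes were 35 of 2020 genes with a shared word for *Slc25a20*, 90 of 4547 for *Slc25a51* and 71 of 2923 for *Slc25a42*. The gene sharing most words with *Slc25a51*, *Gm17831*, averaged 0.00346 CPM. The sums are thus not levels of near copies of the carriers. How far the shared words touch the values of these carriers was not tested.

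Some carriers were nearly absent. The 9 that did not pass the filter were *Slc25a2*, *Slc25a18*, *Slc25a21*, *Slc25a31*, *Slc25a41*, *Slc25a43*, *Slc25a45*, *Slc25a48* and *Slc25a54*. The germ cell ADP/ATP exchanger *Slc25a31* had no count in any of the 16 libraries, which allows at most 0.166 to 0.390 CPM depending on the library. The oxodicarboxylate carrier *Slc25a21* had a count in 3 libraries and at most 3 counts, and *Slc25a41* and *Slc25a54* had a count in 6 libraries each and never more than 1. The highest of the 9 by mean CPM was *Slc25a43*, with 0.474 CPM over the 16 libraries. Of these genes the glutamate carrier *Slc25a18* alone had counts in every library, between 2 and 14.

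Much of the carriers' variation between libraries went with the replicate number. The share of a gene's variance in log2 CPM that went with replicate number had a median of 44.9% over the 38 genes, against 9.25% for isoproterenol and 1.97% for the sgRNA plasmids, where the medians over all genes were 46.8%, 6.79% and 2.38%. Replicate number takes 3 of the 15 degrees of freedom and each factor 1, so shares of 20% and 6.67% would be expected from these alone. The largest share for the sgRNA plasmids was that of the ornithine carrier *Slc25a15*, at 46.6%. The largest replicate share was that of *Slc25a42*, a coenzyme A carrier, at 88.1%, and the largest isoproterenol share that of *Slc25a26*, the S-adenosylmethionine carrier, at 66.6%. These shares are descriptions without a test.

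Most carriers lay low in replicate 6 and high in replicate 5. In replicate 6, 28 of 38 were below their group means (49.8% of all genes), with a median deviation of -0.12 on the log2 scale over the 38, and in replicate 5, 28 of 38 were above them (50.1% of all genes), with a median of 0.13. The summed carrier level was lowest in replicate 6 in all 4 groups, at 2833, 2726, 3012 and 2852 CPM, where the other 12 libraries ranged from 3109 to 3723 CPM. By contrast, *Slc25a24*, an ATP-Mg/phosphate carrier, was 0.71 above its group means in replicate 6, followed by the uncoupling protein-like genes *Slc25a27* and *Slc25a30*. Other lists differed between replicates as well. The 6 preadipocyte and fibroblast markers summed to 17.7 to 51.4, 22.1 to 68.0, 14.2 to 26.9 and 63.3 to 117 CPM in replicates 3 to 6, and the 12 brown adipocyte markers to 21110 to 23940, 20040 to 25180, 15010 to 22190 and 11640 to 18560 CPM. The 3 outer membrane channels summed to 743 to 817 CPM in replicate 6 and 828 to 1078 CPM in the others, and the 10 genes of carrier import to 516 to 566 and 598.5 to 754 CPM. The part of these lists in the carrier differences was not tested. In bulk RNA, fewer cells of a type and less RNA per cell cannot be told apart.

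**Figure D2:**
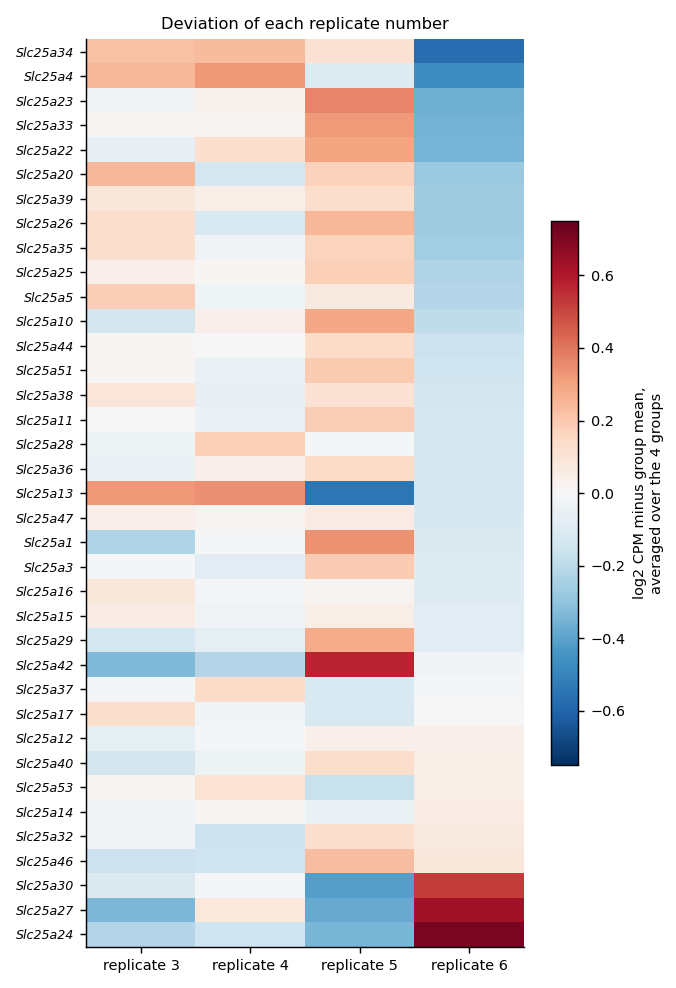
Deviation of log2 CPM from the group mean for 37 tested carriers (rows) in each replicate number (columns), averaged over the 4 groups, with red above and blue below the mean. The replicate 6 column runs from *Slc25a34* at -0.57 to *Slc25a24* at 0.71, and the replicate 5 column is mostly red.

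Isoproterenol, averaged over both plasmids, shifted a few carriers in each direction, and most were not called. In edgeR's quasi-likelihood test without a replicate block, 4 of the 38 rose and 3 fell at a Benjamini-Hochberg adjusted p under 0.05 (18.4% of carriers, where 4.49% of all 13150 tested genes were called, 2.06% higher and 2.43% lower). With the replicate number as a block, which the libraries followed, 6 rose and 5 fell (28.9%, where 21.3% of all genes were called, 10.9% higher and 10.4% lower). The 7 calls made without the block were all among the 11 made with it. Leaving out replicate 3 or replicate 4 left 1 call each without the block, *Slc25a12* and *Slc25a37*, and leaving out replicate 5 or 6 left 4 and 5 (1.03% to 3.63% of all genes), whereas with the block 9 to 12 carriers were called when any replicate was left out (13.4% to 16% of all genes). The median log2 fold change of the 38 was -0.01, against 0.00 over all genes, 19 estimates were positive (51% over all genes) and 19 negative, and 26 lay within 0.25 of 0. Of the 7 called, 4 changed by over 0.5 on the log2 scale, which 2.65% of all genes did. On CPM, 6 carriers were higher in 8 of 8 pairs and 6 lower, where 8.16% and 7.67% of all genes were. Control and stimulated groups did not overlap for 2 carriers, both higher, in empty vector cells (1.94% of all genes higher and 2.14% lower) and for 4 higher and 4 lower in sgRNA cells (3.63% and 3.6%). The share of the ribosomal RNA gene was 19.65% to 47.3% in empty vector control and 22.1% to 51.8% in empty vector stimulated libraries. In sgRNA cells it was 17.8% to 20.2% in control and 11.7% to 28.7% in stimulated libraries. With that share as covariate and no block, edgeR called 7 carriers (6.68% of all genes).

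**Figure D3:**
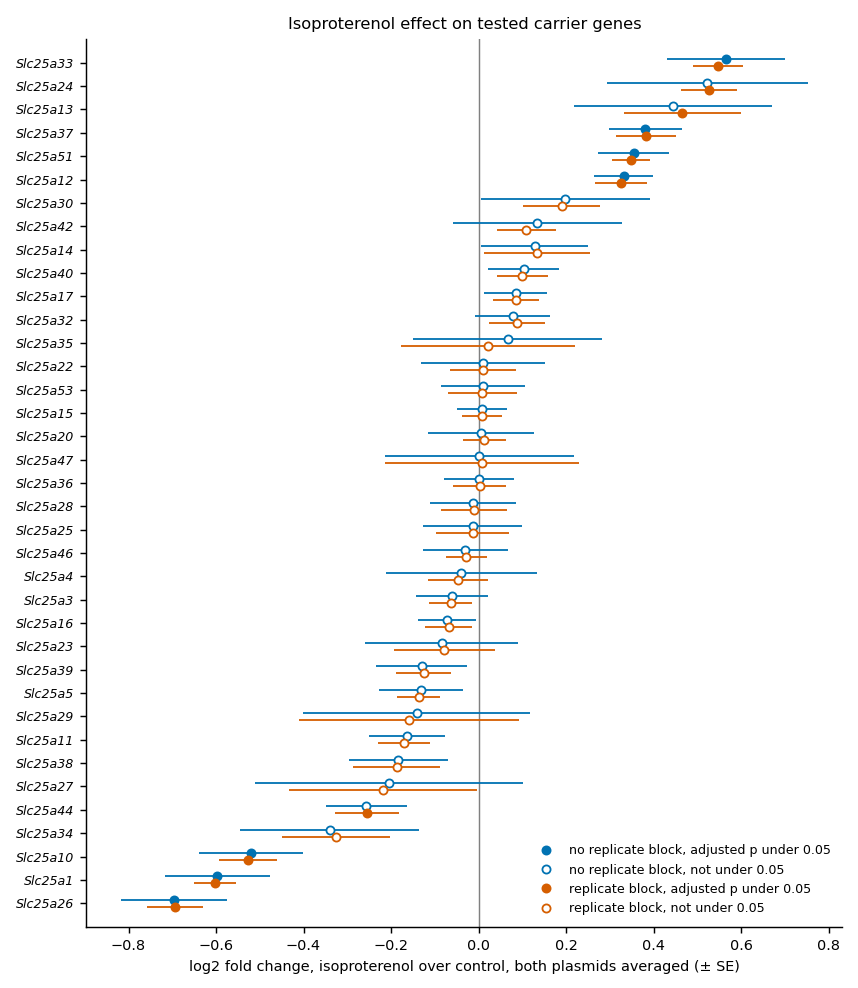
Log2 fold change of 37 tested carriers under isoproterenol, both plasmids averaged, with its SE, from the fit without (blue) and with (orange) the replicate block; filled points have an adjusted p under 0.05. The estimates of both fits lie close together and run from -0.70 for *Slc25a26* to 0.57 for *Slc25a33*, while the SE is smaller with the block.

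Of the 4 fatty acid and carboxylate carriers tested, *Slc25a1* and *Slc25a10* fell. *Slc25a1* (ENSMUSG00000003528, chr16:17925223-17928219, minus strand) exports citrate, the carbon source of fatty acid synthesis. In empty vector cells it measured 147, 173, 214 and 143 CPM in control replicates 3 to 6 and 85.6, 115, 144 and 102 CPM after isoproterenol, and in sgRNA cells 153, 162, 206 and 166 CPM against 97.9, 108, 142 and 107 CPM. The groups did not overlap in sgRNA cells, and in empty vector cells only replicate 5 after isoproterenol reached the lowest control. *Slc25a1* fell by 33.9%, a log2 fold change of -0.60 (SE 0.12, edgeR adjusted p = 0.00857), and was lower in 8 of 8 pairs. *Slc25a10* (ENSMUSG00000025792, chr11:120491840-120499187, plus strand) exchanges malate and succinate for phosphate. It had 193, 224, 249 and 161 CPM in empty vector control and 105, 146, 190 and 124 CPM after isoproterenol. With sgRNA the values were 188, 187, 205 and 166 CPM in control and 124, 126, 158 and 123 CPM after isoproterenol. The sgRNA groups did not overlap, and in empty vector cells replicate 5 after isoproterenol lay above the lowest control. Its log2 fold change was -0.52 (SE 0.12, edgeR adjusted p = 0.0185). The remaining carboxylate and fatty acid carriers were not called: *Slc25a11*, which serves the malate-aspartate shuttle, had an estimate of -0.16 (SE 0.09), and *Slc25a20*, which brings acylcarnitines in for β-oxidation, had 0.01 (SE 0.12). *Slc25a21* was not tested.

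Among the cofactor carriers, *Slc25a26* fell and *Slc25a51* rose. *Slc25a26* (ENSMUSG00000045100, chr6:94500331-94604672, plus strand) imports S-adenosylmethionine, the methyl donor of the matrix. Its levels in empty vector cells were 46.2, 43.3, 53.4 and 31.7 CPM in control and 24.2, 21.03, 31.7 and 20.5 CPM after isoproterenol. In sgRNA cells they were 46.9, 36.8, 48.4 and 37.8 CPM in control and 34.3, 27.0, 30.8 and 24.4 CPM after isoproterenol. Replicate 6 was lowest or next to lowest in every group, the sgRNA groups did not overlap, and the empty vector groups met at 31.7 CPM. Averaged over both plasmids, the fall of 38.3%, a log2 fold change of -0.70 (SE 0.12, edgeR adjusted p = 0.00309), was the largest among the 38 carriers. It was seen in 8 of 8 pairs.

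*Slc25a51* (ENSMUSG00000045973, chr4:45395923-45408766, minus strand) carries NAD into the matrix. It measured 165, 156, 171 and 148 CPM in empty vector control and 193, 180, 238 and 178 CPM after isoproterenol, and 157, 159, 172 and 134 CPM in sgRNA control against 204, 193, 243 and 186 CPM after isoproterenol. Neither plasmid showed any overlap between control and stimulated libraries. The rise was 0.35 on the log2 scale (SE 0.08, edgeR adjusted p = 0.0203). Those for coenzyme A (*Slc25a16*, *Slc25a42*), folate (*Slc25a32*), glutathione (*Slc25a39*, *Slc25a40*) and peroxisomal cofactors (*Slc25a17*), had estimates between -0.13 and 0.13 and were not called in either fit.

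Both aspartate-glutamate carriers, which serve the malate-aspartate shuttle, had higher estimates. *Slc25a12* (ENSMUSG00000027010, chr2:71271063-71367749, minus strand) measured 27.6, 27.2, 26.5 and 25.9 CPM in empty vector control and 30.0, 32.4, 37.3 and 36.0 CPM after isoproterenol, then 24.6, 25.1, 24.1 and 22.9 CPM in sgRNA control and 26.4, 29.3, 30.8 and 34.5 CPM after isoproterenol. Control and stimulated libraries did not overlap with either plasmid. *Slc25a12* rose by 0.33 on the log2 scale (SE 0.07, edgeR adjusted p = 0.00866). Its paralog *Slc25a13* had 0.718 CPM per kilobase of exon against 3.92 for *Slc25a12*, ranged from 1.12 to 4.25 CPM, and its groups overlapped. It was higher in 8 of 8 pairs and called with the block alone (0.47, SE 0.13, edgeR adjusted p = 0.0213, against 0.326 without it).

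Of the other 5 amino acid carriers tested, *Slc25a44*, which transports branched-chain amino acids, was the one called, and only with the block. It had 71.6, 62.3, 64.4 and 51.0 CPM in empty vector control and 42.9, 54.9, 63.5 and 50.5 CPM after isoproterenol. In sgRNA cells it had 67.4, 68.4, 65.3 and 53.7 CPM in control and 54.6, 46.4, 59.4 and 50.2 CPM after isoproterenol. The groups overlapped, the difference was near 0 in replicates 5 and 6 of empty vector cells, and the value was lower in 8 of 8 pairs (log2 fold change -0.25 with the block, SE 0.07, edgeR adjusted p = 0.0218, against 0.141 without it). *Slc25a15* (ornithine, 0.01), *Slc25a22* (glutamate, 0.01), *Slc25a29* (basic amino acids, -0.14) and *Slc25a38* (glycine, -0.18) were not called.

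Of the pyrimidine nucleotide carriers, *Slc25a33* was called and *Slc25a36* was not. *Slc25a33* (ENSMUSG00000028982, chr4:149744036-149774277, minus strand), which carries pyrimidine nucleotides, had 41.2, 40.3, 43.2 and 30.3 CPM in empty vector control and 53.6, 52.0, 76.9 and 40.5 CPM after isoproterenol, and 41.8, 43.9, 46.9 and 32.4 CPM in sgRNA control against 59.6, 60.4, 82.9 and 49.3 CPM. Replicate 5 was highest and replicate 6 lowest in all 4 groups, and the sgRNA groups did not overlap. The rise of 48.0%, or 0.57 on the log2 scale (SE 0.14, edgeR adjusted p = 0.0259), was the largest estimate among the carriers, averaged over both plasmids. It exceeded the 0.52 of *Slc25a24* by less than that SE. It was found in 8 of 8 pairs, although without the sgRNA control library of replicate 3, the sgRNA stimulated library of replicate 5 or the sgRNA control library of replicate 6 the adjusted p was 0.0548, 0.0502 and 0.0517. *Slc25a36*, the other pyrimidine nucleotide carrier, had an estimate of 0.00 (SE 0.08). The difference between the responses of these genes was not tested.

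*Slc25a37* (mitoferrin 1; ENSMUSG00000034248, chr14:69241848-69285112, minus strand), an iron importer, showed 14.9, 19.8, 13.5 and 16.6 CPM in empty vector control and 19.6, 21.8, 17.2 and 22.1 CPM after isoproterenol. In sgRNA cells it showed 16.6, 17.7, 16.02 and 14.97 CPM in control and 23.5, 22.4, 22.8 and 20.4 CPM after isoproterenol. The groups overlapped with the empty vector and not with sgRNA. It rose by 0.38 on the log2 scale (SE 0.08, edgeR adjusted p = 0.0156), in 8 of 8 pairs. *Slc25a28*, mitoferrin 2, had an estimate of -0.01 (SE 0.10) and was not called.

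Among the calcium-regulated ATP-Mg/phosphate carriers, which set the adenine nucleotide pool of the matrix, *Slc25a24* (ENSMUSG00000040322, chr3:109123149-109168457, plus strand) had 16.6, 18.2, 16.2 and 34.5 CPM in empty vector control and 26.0, 23.9, 21.9 and 47.2 CPM after isoproterenol. With sgRNA it had 12.03, 14.5, 14.0 and 26.7 CPM in control and 22.7, 22.9, 16.9 and 36.5 CPM after isoproterenol. Replicate 6 was the highest library of every group, so the groups overlapped although 8 of 8 pairs were higher. The call was made with the block alone (log2 fold change 0.53, SE 0.06, edgeR adjusted p = 2.81e-05, against 0.247 without it). *Slc25a23* (-0.08, SE 0.17) and *Slc25a25* (-0.01, SE 0.11) were not called. *Slc25a25* measured 23.6 to 38.6 CPM in control and 27.1 to 42.5 CPM in stimulated libraries, with the 8 pairs split 4 to 4.

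**Figure D4:**
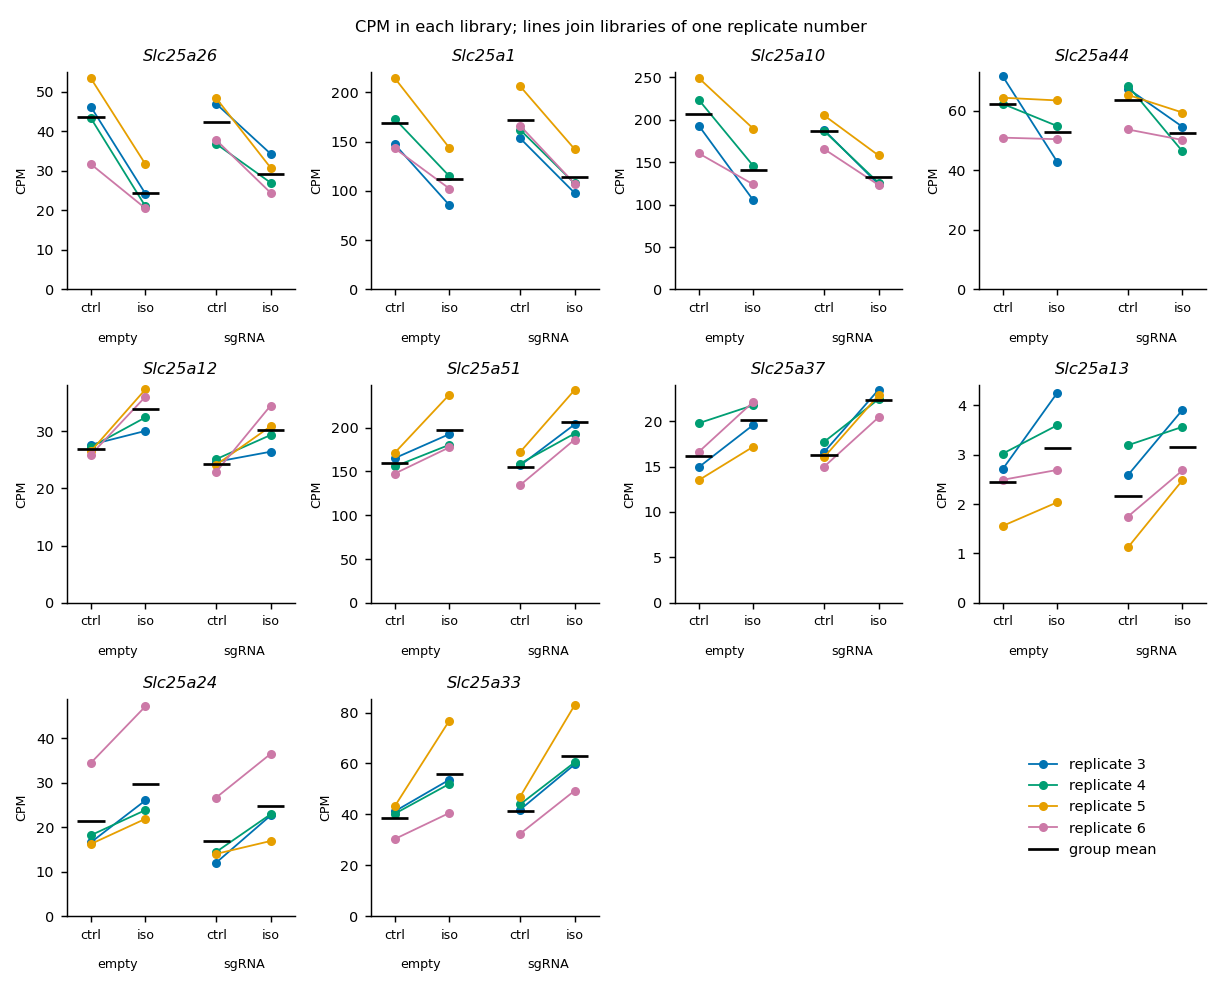
CPM of 10 carriers called in either fit, in each of the 16 libraries, with lines joining the control (ctrl) and isoproterenol (iso) library of 1 replicate number and plasmid, and black bars for group means. The lines of each panel slope the same way in 8 of 8 pairs, and replicate 6 of *Slc25a24* lies above the others in all 4 groups.

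The most abundant carriers were not called. *Slc25a5* was lower in 8 of 8 pairs by a small amount, from 915 ± 112 to 805 ± 143 CPM in empty vector and from 881 ± 60.7 to 834 ± 89.9 CPM in sgRNA cells (SD, n = 4), with a log2 fold change of -0.13 (SE 0.10, edgeR adjusted p = 0.531, and 0.0563 with the block). *Slc25a4* had 429 ± 133 and 387 ± 96.0 CPM in empty vector and 423 ± 69.04 and 444 ± 125 CPM in sgRNA cells, with 5 pairs higher and 3 lower. *Slc25a3* had an estimate of -0.06 (SE 0.08). The uncoupling protein-like *Slc25a14*, *Slc25a27* and *Slc25a30* (0.13, -0.20 and 0.20) and the 5 tested carriers of other or uncertain substrate, *Slc25a34*, *Slc25a35*, *Slc25a46*, *Slc25a47* and *Slc25a53*, whose estimates ran from -0.34 to 0.07, were not called either. The summed level of all 47 carriers was 3446 ± 419 CPM in empty vector control, 3124 ± 309 in empty vector stimulated, 3313 ± 209 in sgRNA control and 3238 ± 281 in sgRNA stimulated libraries. It was lower after isoproterenol in 7 of 8 pairs, by 0.09 ± 0.08 on the log2 scale (mean and SD of the 8 pairs, a change of -5.84%), a description without a test.

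Markers of cell type moved in the same comparison, in both directions. The 12 brown adipocyte markers, 10 of them over 1 CPM on average, summed to 15120 to 25180 CPM in empty vector control and 11640 to 21110 CPM after isoproterenol, and to 18560 to 23760 and 12580 to 22630 CPM in sgRNA cells, a sum of which *Fabp4* made up the most (8215 to 19510 CPM). Of the 12, *Ucp1* and *Ppargc1a* rose (log2 fold change 4.03 and 0.71) and *Adipoq* fell (-1.06, SE 0.18, edgeR adjusted p = 0.00222) without the block, and with it *Cidea* and *Elovl3* also rose and *Fabp4* and *Plin1* also fell. The macrophage list summed to 8.18 to 14.4 and 14.4 to 22.6 CPM in empty vector control and stimulated libraries and to 6.44 to 13.8 and 13.6 to 22.1 CPM with sgRNA, nearly all of it *Cd68*, which rose by 0.91 (SE 0.17, edgeR adjusted p = 0.00518). The preadipocyte and fibroblast list summed to 20.9 to 98.9 and 26.9 to 117 CPM in empty vector control and stimulated libraries, and to 14.2 to 63.3 and 21.5 to 88.8 CPM with sgRNA, and of its 3 tested genes *Ly6a* was called higher with the block (1.09, edgeR adjusted p = 4.92e-06, against 0.34 without it). The part of these lists in the carrier changes was not tested.

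Within each plasmid the test had less power, with 4 libraries against 4. In empty vector cells the fit without the block called 1 of 38 carriers, *Slc25a26* (2.63%, where 0.913% of all genes were called), at -0.85 (SE 0.17, edgeR adjusted p = 0.027). Without the control library of replicate 3, 4 or 5, or the stimulated library of replicate 3, 4 or 6, 0 carriers were called there (0.43% to 0.611% of all genes), and without the stimulated library of replicate 5 there were 3 (1.14% of all genes). In sgRNA cells edgeR called 0 (0.722% of all genes), with 7 carriers and 8.46% of all genes at an unadjusted p under 0.05, while DESeq2 called 3 in empty vector cells (2.12% of all genes it tested) and 3 in sgRNA cells (1.53%). With the block 8 carriers were called in empty vector cells (21.1%, where 9.57% of all genes were called) and 8 in sgRNA cells (21.1%, against 8.4%). *Slc25a1*, *Slc25a10*, *Slc25a12*, *Slc25a24*, *Slc25a26*, *Slc25a33* and *Slc25a51* were called with both plasmids, and *Slc25a37* with sgRNA.

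Whether the response differed between plasmids was tested as an interaction. *Slc25a1* fell by 0.60 with the empty vector and by 0.60 with sgRNA in the fit with the block (SE 0.07 for both). For *Slc25a26* the values were -0.84 (SE 0.09) and -0.54 (SE 0.09), an interaction of 0.30 (SE 0.13) with an unadjusted p of 0.032 in edgeR and an adjusted p of 1. *Slc25a20* had a like interaction of 0.23 (SE 0.10, unadjusted p = 0.0334 in edgeR, adjusted p = 1). The interaction called 0 of 38 carriers in edgeR without the block (0% of all genes called), with the block and in DESeq2 (0% in each), and the number at an unadjusted p under 0.05 was 0 without and 2 with the block (0.395% and 1.51% of all genes).

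**Figure D5:**
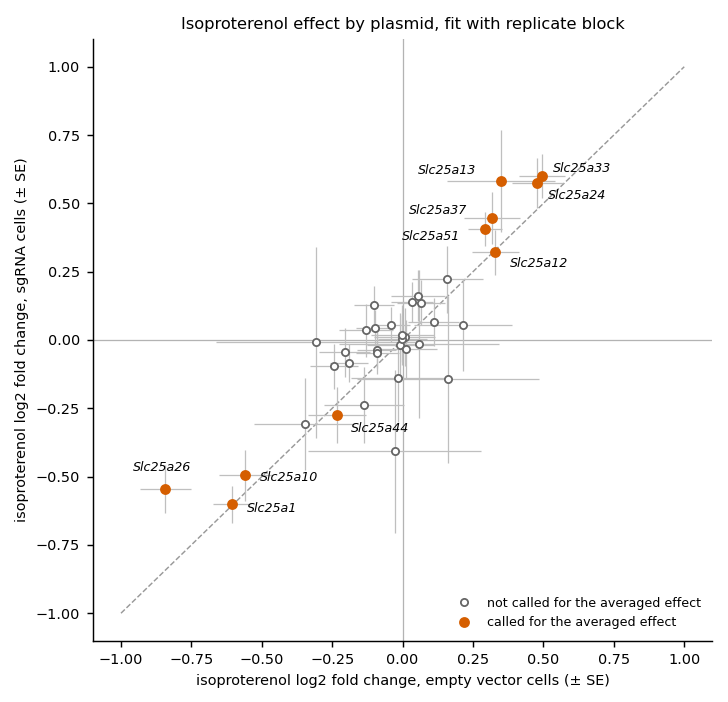
Log2 fold change under isoproterenol in empty vector cells (horizontal) against sgRNA cells (vertical) for 37 tested carriers, with SE, from the fit with the replicate block; the dashed line marks equal effects and filled points 10 genes called for the averaged effect. *Slc25a26*, at -0.84 and -0.54, lies above the line, and *Slc25a1*, at -0.60 and -0.60, lies on it.

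The sgRNA plasmids against *Gm15551* changed no carrier past the threshold. Without the block the targeted gene itself was not called either, although it was higher in 8 of 8 pairs. Its log2 fold change was 2.37 (SE 0.39, edgeR adjusted p = 0.0989, and 0.00055 with the block). With the block it was called in stimulated cells (edgeR adjusted p = 0.0127) and not in unstimulated cells (0.0955). A carrier without a call may therefore still have changed. Averaged over both treatments, edgeR called 0 of 38 without the block (0% of all genes) and 0 with it (0.586% of all genes), with 2 and 6 carriers at an unadjusted p under 0.05 (3.32% and 11.5% of all genes), and DESeq2 called 0 (0.0522% of all genes it tested). The estimates without the block ran from -0.33 for *Slc25a29*, a gene with 7 to 40 counts per library, to 0.20 for *Slc25a34*, and 36 of the 38 lay within 0.25 of 0. The carrier nearest to a call was *Slc25a24*, lower with sgRNA in 8 of 8 pairs, at -0.29 with the block (SE 0.06, edgeR adjusted p = 0.0574, and 1 without the block). With the ribosomal RNA share added to the block, the smallest adjusted p of any carrier was 0.975 in edgeR. That share was 19.65% to 51.8% in empty vector and 11.7% to 28.7% in sgRNA libraries. *Slc25a12* was lower in 8 of 8 pairs as well (-0.16, SE 0.06, edgeR adjusted p = 0.321 with the block) and *Slc25a33* higher in 8 of 8 (0.14, SE 0.06, adjusted p = 0.382), where 2.07% of all genes were lower and 1.01% higher in 8 of 8 pairs. All 3 were also called higher under isoproterenol with the block. Of 3 tested preadipocyte and fibroblast markers, 1 was called in that fit, *Ly6a*, lower with sgRNA (-0.74, edgeR adjusted p = 0.00491). Of 12 tested brown markers, 1 was called, *Cidea*, higher with sgRNA (1.05, edgeR adjusted p = 0.0348). The part of these 2 genes in the carrier estimates was not tested.

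In unstimulated cells alone, 0 carriers were called (0% of all genes without and 0.038% with the block, with 1 and 2 carriers at an unadjusted p under 0.05 in edgeR against 1.48% and 5.73% of all genes, and 0 by DESeq2, which called 0.00575% of all genes). *Slc25a15*, at 26.3, 25.8, 26.9 and 24.3 CPM with the empty vector and 23.7, 22.9, 22.3 and 21.8 CPM with sgRNA, did not overlap between the plasmids (0.814% of all genes did not overlap in this direction), and its log2 fold change was -0.19 (SE 0.08, edgeR adjusted p = 1). *Slc25a12* was the other carrier with separate groups. In stimulated cells 0 carriers were called too (0% of all genes without and 0.137% with the block, with 0 and 5 carriers at an unadjusted p under 0.05 in edgeR against 1.49% and 7.29% of all genes, and 0 by DESeq2, which called 0.00575% of all genes). The summed carrier level was higher with sgRNA in 5 of 8 pairs and lower in 3, with a mean log2 ratio of 0.00 ± 0.08 (SD of the 8 pairs).

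Relatives of the carriers that have other symbols included the strongest response. *Ucp1* rose from 0 to 0.722 CPM in empty vector control to 4.37 to 10.1 CPM after isoproterenol and from 0.225 to 0.979 to 5.94 to 15.5 CPM in sgRNA cells, by 4.03 on the log2 scale (SE 0.37, edgeR adjusted p = 7.36e-06). *Ucp2*, at 151 to 333 CPM, and *Ucp3*, at 0.152 to 1.16 CPM, were called higher with the block only (0.31 and 0.92, edgeR adjusted p = 0.0108 and 0.0342, against 0.192 and 0.143 without it). *Mtch1*, an outer membrane insertase of the family, fell by 0.41 (SE 0.11, edgeR adjusted p = 0.0376), and *Mtch2* was not called. Of the 10 tested genes of the TIM22 route that inserts carriers, 2 rose and 1 fell with the block, which called 21.3% of all genes, and these were not called without it (*Tomm70a* 0.14 and *Timm10* 0.22 higher, *Timm22* -0.19).

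Other transporters and the enzymes that use carrier substrates were counted in the same fits, in which 4.49% of all genes were called without and 21.3% with the block. Of 17 other inner membrane transporters 0 rose and 2 fell without the block, *Sfxn1*, a serine transporter (-0.40, SE 0.10, edgeR adjusted p = 0.0268), and *Abcb10* (-0.28, SE 0.06, adjusted p = 0.0175). With the block 3 rose and 4 fell, among them *Mcub*, an inhibitory subunit of the calcium uniporter, at 0.68. The 3 outer membrane channels *Vdac1*, *Vdac2* and *Vdac3* were not called in either fit. Of 16 tested partner enzymes, 1 rose without the block, the cytosolic aspartate aminotransferase *Got1* (0.51, SE 0.08, edgeR adjusted p = 0.00153), and 4 rose and 8 fell with it. The 5 with the largest estimates in that fit were *Bcat1* (0.88), *Gpd1* (-0.69), *Got1* (0.52), *Cpt1b* (0.44) and *Cpt1a* (0.35). *Acly* and *Me1*, which use exported citrate and cytosolic malate for lipid synthesis, were among the 8 that fell (-0.27 and -0.32).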

How the data were processed

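RNA-seq of polyadenylated RNA was measured in 16 libraries. The deposited values are expected counts per gene: the authors used cutadapt for trimming and salmon for quantification, on GENCODE M22 transcripts of GRCm38, with tool versions and use of strand not given in the sources used here. The values are whole numbers as deposited. Groups came from the labels. Genes were kept by edgeR's filter (minimum count 10, minimum total 15), leaving 13150, and fitted with edgeR 4.0.16 quasi-likelihood (R 4.3.3, limma 3.58.1, TMM scaling) on 4 group means. P-values were two-sided with Benjamini-Hochberg adjustment over all tested genes, and called under 0.05. CPM used TMM library sizes, and log2 CPM a prior count of 2. Levels per kilobase used merged exon lengths of GENCODE M21, a different release from that used by the authors.

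Same-numbered libraries deviated together from their group means (correlations over genes 0.224 to 0.613 in every pair, against -0.512 to 0.516 with a median of -0.215 for different numbers in different groups), so estimates blocked on replicate number are given beside results they change. The pairing rests on this check and on the shared numbers in the labels. The biological coefficient of variation was 18% without and 9.96% with the block.

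Carriers were named if called in either fit, if among the 10 highest per kilobase, if below the filter, or if *Slc25a1*, *Slc25a3*, *Slc25a4*, *Slc25a5*, *Slc25a20*, *Slc25a25* or *Slc25a44*. From other lists up to 5 called genes with the largest change were named, and *Ucp1*, *Ucp2* and *Ucp3*; other names were chosen after their values were seen. Members and lists were chosen with earlier results of these data known. Alternatives were DESeq2 1.42.0, other scalings and filters, the ribosomal RNA share as covariate, a fold bound, and leaving out libraries. Protein sequences were not used here. The counts include 1 carrier that is not reported here by name and is left out of the figures. The limit for a count of 0 is 3 counts and covers counting error only.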

Additional observations from a re-analysis of the deposited data

Results flagged for a closer look

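The check covered 76 groups of 4 libraries (19 of the named carriers in each of the 4 groups). In each, the gap from the most extreme library to its nearest neighbour was divided by the range of all 4. Dixon's criterion sets a limit that chance exceeds in about 1 in 20 independent groups, but these groups share replicate numbers. It was exceeded in 8 groups, a count that cannot be set against that rate. Of these, 3 belonged to *Slc25a24* in replicate 6, with 34.5 CPM in empty vector control (others 16.2 to 18.2), 47.2 in empty vector stimulated (others 21.9 to 26.0) and 26.7 in sgRNA control (others 12.03 to 14.5). A further 4 were high values in replicate 5. These were *Slc25a3* in sgRNA control at 433.0 CPM (others 395.1 to 400.5), *Slc25a10* in sgRNA stimulated at 158 (others 123 to 126), and *Slc25a11* at 126 in empty vector stimulated (others 86.3 to 92.2) and 115 in sgRNA stimulated (others 93.4 to 96.4). The last was *Slc25a17* in replicate 3 of empty vector control, at 72.04 CPM (others 59.4 to 61.2).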

How the results depend on the processing

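The 7 carriers called under isoproterenol (4.49% of all genes) became 11 with the replicate block (21.3%), 11 with the block and the ribosomal RNA share (19.3%), 4 without a low-count filter (1.62%) and 4 with a bound of 0.5 on the log2 fold change (2.65%). Leaving out a replicate or library gave 1 to 7 calls (1.03% to 6.42%), and 9 to 12 with the block (13.4% to 16%), an alternative chosen after seeing the data. In empty vector cells 1 call (0.913%) became 8 with the block (9.57%), 7 with the block and the ribosomal RNA share (7.88%), 3 in DESeq2 (2.12%) and 0 when only the 2 groups compared were fitted (0.359%), with 0 to 3 when a replicate or library was left out (0.264% to 1.52%) and 6 to 7 with the block as well (4.44% to 6.92%). In sgRNA cells 0 calls (0.722%) became 8 with the block (8.4%), 8 with the block and the ribosomal RNA share (9.03%), 3 in DESeq2 (1.53%) and 1 with that share as covariate (1.03%), and left-out replicates gave 0 (0.219% to 0.53%), or 7 to 8 with the block (4.02% to 5.64%). Without a low-count filter *Slc25a12*, *Slc25a37* and *Slc25a51* lost their calls. Estimates near 0 changed sign: *Slc25a4* (-0.04) was 0.0543 with the ribosomal RNA share, 0.0124 with the block and that share, -0.14 to 0.0513 with a replicate or library left out, and 0.0251 with the block and without replicate 3. *Slc25a20* (0.0050) was -0.0001 with scaling that left out ribosomal RNA genes, -0.0250 without a filter, -0.0321 with the ribosomal RNA share -0.0535 to 0.0775 with a replicate or library left out, and -0.0217 and -0.019 with the block and without replicate 5 or 6. *Slc25a25* (-0.01) ran from -0.12 to 0.10 with a replicate or library left out, and was 0.0914 and 0.0394 with the block and without replicate 3 or 4. The cause of these differences was not tested. The block changed no call of the sgRNA effect or the interaction among the carriers. Genes of few counts, such as *Slc25a29* and *Slc25a27*, had an SE of 0.26 and 0.31, so moderate differences in them may go uncalled. *Slc25a13*, with 12 to 65 counts per library, was called with the block. The effect of depth on the calls was not tested.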
